A study of Caenorhabditis elegans with 6 samples.

Results

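The catechol O-methyltransferase family of *C. elegans* was examined in *vhl-1* mutants and wild type animals. Its 5 members, *comt-1* to *comt-5*, were found by their WormBase symbols among the 46778 genes of each deposited set of counts, and all 5 passed the filter on low counts. The family was chosen by the rise of *comt-4* in its counts between these same libraries, so the difference in *comt-4* is described here and not tested. The other 4 members were taken in for their symbols and not for their own values. The animals were whole, age-synchronized young adults. The mutants carried *vhl-1(ok161)*, a null allele of the gene for the worm counterpart of the von Hippel-Lindau protein, in a single strain and were set against wild type N2 animals. Each genotype had 3 biological replicates. RNA of whole animals was sequenced, so that more cells expressing a gene and more RNA per cell cannot be told apart.

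Catechol O-methyltransferases move a methyl group from S-adenosylmethionine to a hydroxyl group of a catechol, a ring that carries a pair of neighboring hydroxyl groups. In mammals the enzyme inactivates dopamine and related catecholamines. *C. elegans* makes dopamine in a small set of neurons, and its *comt* genes were named for their similarity to the mammalian enzyme. VHL-1 marks the hypoxia-inducible factor HIF-1 for degradation, so HIF-1 is stabilized in *vhl-1* mutants.

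The libraries held from 60286645 to 82910026 reads on genes in *vhl-1* mutants and from 52462303 to 78205244 in wild type animals. Levels are given as CPM, the reads of a gene per unit of library size after scaling with the TMM method of edgeR. On this scale a single read was worth 0.0119 to 0.0201 CPM. The *vhl-1* gene itself had 7, 3 and 1 reads in the mutant libraries, against 501, 442 and 373 reads in the wild type libraries, so the libraries match their labels. The level of germ line and oocyte transcripts varied among libraries of the same genotype. The summed level of 4 such markers (*cpg-1*, *cpg-2*, *rme-2* and *puf-5*) was 1240, 239 and 780 CPM in the *vhl-1* libraries, against 1338, 676 and 369 CPM in the wild type libraries. The ranges of the genotypes overlapped, and none of the 4 markers passed the test between genotypes. Markers of intestine, hypodermis, body wall muscle and sperm were read in every library, and their summed levels overlapped between genotypes as well. The hypodermis sum hides wide variation within genotypes in *col-19* and *dpy-7*. *col-19* had 711, 31.4 and 315 CPM in *vhl-1* mutants, against 1201, 283 and 299 CPM in wild type animals. For *dpy-7* these were 119, 248 and 187 CPM, against 47.8, 188 and 131 CPM. A difference in developmental stage among the libraries was not tested.

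3 of the members lie in a cluster. In the Ensembl annotation of WBcel235, *comt-4* (WBGene00021491) lies on the minus strand of chromosome V from 2049217 to 2050185. *comt-5* (WBGene00021492) follows on the same strand from 2052226 to 2053609, and *comt-3* (WBGene00021487) lies beyond it on the plus strand from 2057537 to 2061136. The gap between *comt-4* and *comt-5* is 2040 bases, and that between *comt-5* and *comt-3* is 3927 bases. *comt-2* (WBGene00012518) lies on the same chromosome, on the minus strand from 16493453 to 16494489. *comt-1* (WBGene00018741) lies on the minus strand of chromosome X from 2858063 to 2862472.

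The gene structures fell into 2 kinds. *comt-3*, *comt-4* and *comt-5* each have 4 exons, with exon 2 of 331 bases and exon 3 of 134 bases in all of them. Their last exon carries 153 coding bases. *comt-2* has the same layout, with 334 bases in exon 2, 134 bases in exon 3 and 153 coding bases in the last. *comt-1* differs from the others, since it has 11 exons. The exon map shows the shared layout and the genes that run across the members on the other strand.

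**Figure D1:**
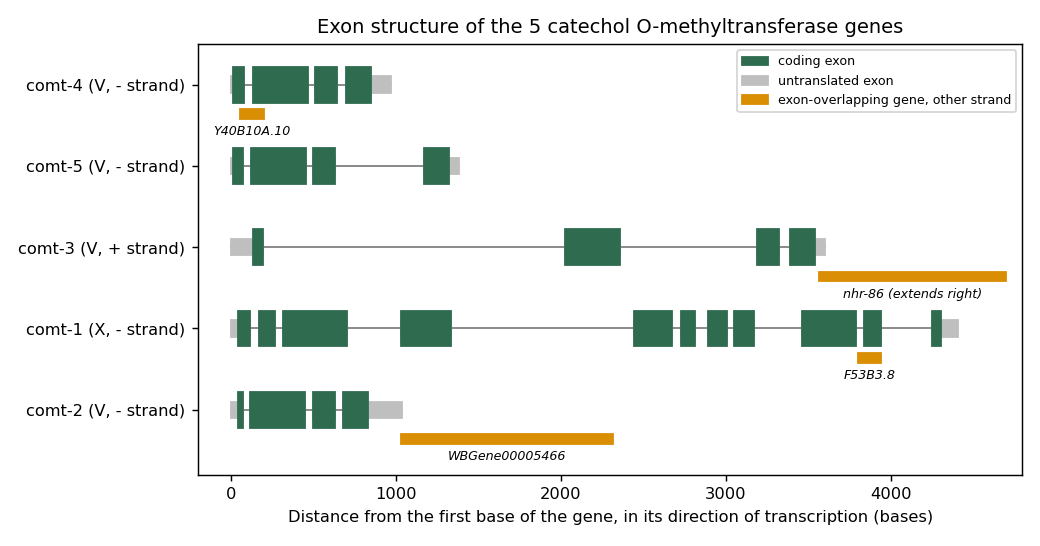
Exons of the 5 members, drawn to scale against the distance in bases from the first base of each gene in its direction of transcription. Green boxes are coding, gray boxes untranslated, lines introns, and orange bars genes on the other strand whose exons overlap those of the member. The 4 exons of *comt-4*, *comt-5*, *comt-3* and *comt-2* follow one layout, and *comt-1* has 11 exons.

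*comt-4* was abundant in *vhl-1* mutants and barely read in wild type animals. It had 13807, 6682 and 8901 reads in the *vhl-1* libraries, against 33, 25 and 28 reads in the wild type libraries. In CPM these were 164, 82.1 and 144 in *vhl-1* mutants, against 0.420, 0.40 and 0.562 in wild type animals. The mutant library with the lowest level still lay 146-fold above the wild type library with the highest. *comt-4* averaged 130 ± 42.7 CPM in *vhl-1* mutants and 0.461 ± 0.0882 CPM in wild type animals (SD, n = 3 each), which gave a log2 fold change of 8.15 ± 0.36 (SE). Dropping any 1 library gave values from 7.95 to 8.40. These are the values for which the gene was chosen, so the SE and this range are descriptive and lend the difference no support. For scale, 10 of the 16596 genes that passed the filter had a log2 fold change above 5, or 0.0603%.

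The mutant libraries differed among themselves in *comt-4*. The second replicate had the lowest level of the 3, and it was also the mutant library with the lowest sum of germ line and oocyte markers. The first replicate was highest in both. With the germ line marker score as a covariate, an alternative chosen after the data were seen, the log2 fold change of *comt-4* was 8.20.

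*comt-5*, the nearest paralog on the chromosome, was higher in *vhl-1* mutants. It had 652, 934 and 550 reads in the *vhl-1* libraries, against 186, 201 and 143 reads in the wild type libraries. Its levels were 7.73, 11.5 and 8.93 CPM in *vhl-1* mutants, against 2.37, 3.22 and 2.87 CPM in wild type animals. The genotypes did not overlap, and the lowest mutant library lay 2.40-fold above the highest wild type library. *comt-5* averaged 9.38 ± 1.91 CPM in *vhl-1* mutants and 2.82 ± 0.428 CPM in wild type animals (SD, n = 3 each). On the log2 scale the difference was 1.74 ± 0.21 (SE), with an adjusted p of 0.0192 in edgeR's quasi-likelihood test over all 16596 genes. The adjusted p was above the threshold of 0.05 in the fits that dropped *vhl-1* replicate 3 (0.108), wild type replicate 2 (0.0957) or wild type replicate 3 (0.0968), while the difference stayed between 1.56 and 1.86.

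*comt-3*, the third gene of the cluster, was also higher in *vhl-1* mutants, with the tightest agreement among replicates in the family. It had 2165, 2161 and 1527 reads in the *vhl-1* libraries, against 1368, 1087 and 844 reads in the wild type libraries. In CPM these were 25.7, 26.6 and 24.8 in *vhl-1* mutants, against 17.4, 17.4 and 16.9 in wild type animals. Every mutant library lay above every wild type library. Its mean was 25.7 ± 0.884 CPM in *vhl-1* mutants and 17.2 ± 0.268 CPM in wild type animals (SD, n = 3 each), a ratio of 1.49. The log2 difference of 0.57 ± 0.094 (SE) passed the threshold by a narrow margin, with an adjusted p of 0.0498 in edgeR's quasi-likelihood test. The call was lost whenever any library was left out, with adjusted p from 0.0926 to 0.262 in edgeR's test, although the difference itself only ranged from 0.55 to 0.60. DESeq2, the tool named in the study's methods, gave *comt-3* an adjusted p of 6.31e-05 and *comt-5* one of 1.88e-11.

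The remaining members were weakly expressed and did not pass the threshold. *comt-2* had 103, 128 and 87 reads in the *vhl-1* libraries, against 28, 51 and 49 reads in the wild type libraries. The genotypes did not overlap in CPM, with 1.22 to 1.57 in *vhl-1* mutants and 0.356 to 0.983 in wild type animals. The log2 difference was 0.98 ± 0.39 (SE), with a 95% interval from 0.057 to 1.90 and an adjusted p of 0.488 in edgeR's test. *comt-1* had 211, 353 and 223 reads in the *vhl-1* libraries, against 67, 174 and 127 reads in the wild type libraries. Here the genotypes overlapped, since the first *vhl-1* library had 2.50 CPM and wild type replicates 2 and 3 had 2.79 and 2.55 CPM. For *comt-1* the log2 difference was 0.76 ± 0.46 (SE), with a 95% interval from -0.33 to 1.86 and an adjusted p of 0.783 in edgeR's test. The first wild type library was the lowest of all 6 for *comt-1*, *comt-2* and *comt-5* and had the highest sum of germ line and oocyte markers. Without it, the log2 fold change was 0.39 for *comt-1*, 0.64 for *comt-2* and 1.62 for *comt-5*. With the marker score as a covariate, it was 0.73 for *comt-1* (edgeR adjusted p = 0.404), 0.97 for *comt-2* (0.201), 0.57 for *comt-3* (0.0166) and 1.68 for *comt-5* (0.00534).

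Of the 4 members other than *comt-4*, 2 thus passed the threshold, both higher in *vhl-1* mutants. Over all 16596 genes tested, 0.874% passed it in that direction and 1.25% in either direction. The genotypes did not overlap, with the mutants higher, in 3 of these 4 members, against 6.97% of all genes. The median log2 fold change over all genes tested was 0.0059. At an unadjusted edgeR p under 0.05 there were 3 of the 4, against 4.62% of all genes on the higher side. A log2 fold change above 0.5 was shown by all 4, against 9.21% of all genes, and one above 1 by *comt-5* alone, against 2.75%. With DESeq2, *comt-3* and *comt-5* again passed an adjusted p of 0.05, against 1.78% of its 18932 genes on the higher side and 3.45% in either direction. Whether the sizes of the differences varied between *comt-1*, *comt-2*, *comt-3* and *comt-5* was not tested.

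**Figure D2:**
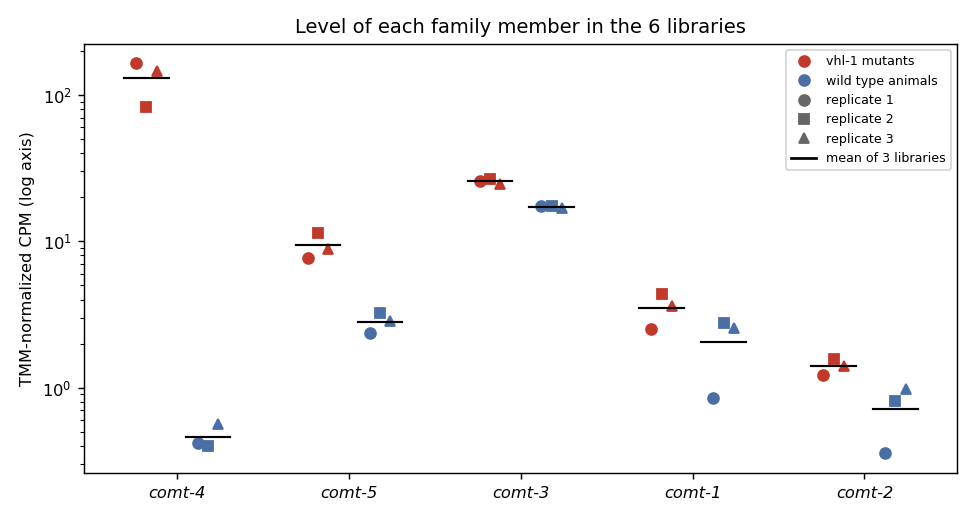
TMM-normalized CPM of each member in the 6 libraries, on a log axis. Red symbols are *vhl-1* mutants and blue symbols wild type animals, the shape gives the replicate, and black lines are means of 3 libraries. *comt-4* lies at 82.1 to 164 CPM in *vhl-1* mutants and at 0.40 to 0.562 CPM in wild type animals, and *comt-1* is the member whose genotypes overlap.

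The order of the members was compared after division by exonic length. In *vhl-1* mutants, *comt-4* was highest with 160 ± 52.3 CPM per kilobase (SD, n = 3). *comt-3* followed with 29.6 ± 1.02 and *comt-5* with 12.5 ± 2.54 CPM per kilobase, and the libraries of these 3 genes did not overlap. *comt-1* and *comt-2* came last, with 1.70 ± 0.452 and 1.57 ± 0.196 CPM per kilobase, and lay within each other's spread. In wild type animals the order was led by *comt-3*, with 19.9 ± 0.309 CPM per kilobase, and by *comt-5*, with 3.74 ± 0.569 CPM per kilobase. Below them, *comt-1* with 1.01 ± 0.515, *comt-2* with 0.802 ± 0.363 and *comt-4* with 0.565 ± 0.108 CPM per kilobase could not be told apart by their spread. The members other than *comt-4* therefore kept their order between the genotypes as far as the spread resolves it.

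The make-up of the family differed accordingly. *comt-4* took 81.5%, 65.1% and 78.9% of the reads of the 5 members in the *vhl-1* libraries, against 1.96%, 1.63% and 2.35% in the wild type libraries. The 95% Wilson intervals of these shares, which cover counting error only, ran at most from 64.2% to 66.1% in a mutant library and from 1.63% to 3.38% in a wild type library. Per kilobase, *comt-3* made up 12.2%, 20.3% and 12.9% of the family in *vhl-1* mutants, against 81.8%, 74.0% and 74.0% in wild type animals. All 5 members together reached 170 ± 39.1 CPM in *vhl-1* mutants and 23.3 ± 1.69 CPM in wild type animals (SD, n = 3 each). Without *comt-4*, the sum of the other 4 was 39.9 ± 3.56 CPM in *vhl-1* mutants and 22.8 ± 1.68 CPM in wild type animals, a ratio of 1.75.

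**Figure D3:**
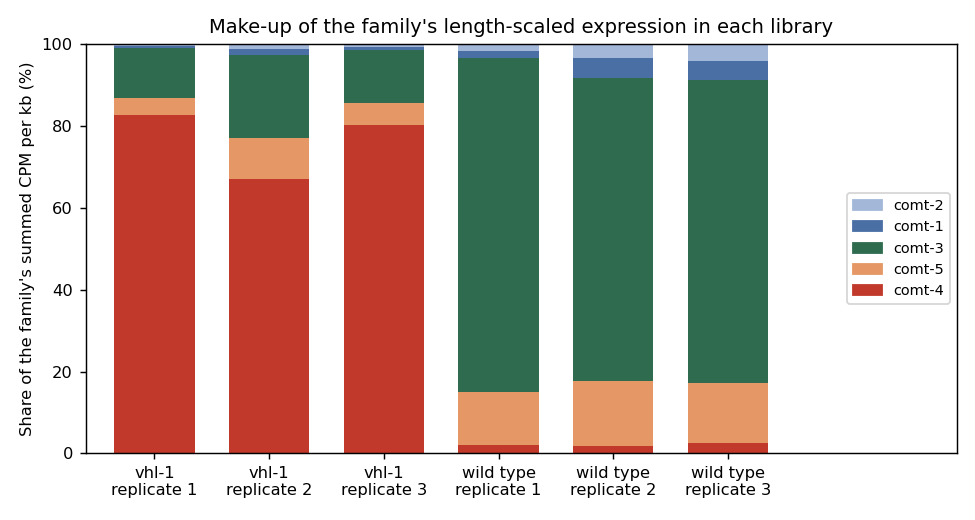
Share of each member in the summed CPM per kilobase of the family, in percent, for the 3 *vhl-1* libraries on the left and the 3 wild type libraries on the right. *comt-4* (red) fills most of each mutant bar, where *comt-3* (green) takes 12.2% to 20.3%, and *comt-3* takes 74.0% to 81.8% of the wild type bars.

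The mutant libraries ranked differently for *comt-4* than for its paralogs. The second *vhl-1* library had the lowest level of *comt-4* among the mutant libraries and the highest level of each of *comt-1*, *comt-2*, *comt-3* and *comt-5*. The gaps were narrow for *comt-3*, with 25.7, 26.6 and 24.8 CPM. They were narrow too for *comt-2*, with 1.22, 1.57 and 1.41 CPM from 103, 128 and 87 reads. The level of *comt-4* per kilobase was 19.6, 6.61 and 14.95 times that of *comt-5* in the *vhl-1* libraries, against 0.164, 0.115 and 0.181 times in the wild type libraries. How reads that map to several genes were handled is not given in the sources used here, and no sequence was compared, so an exchange of reads between the members was not measured. In reads, the second *vhl-1* library had 6682 of *comt-4* and 934 of *comt-5*, against 13807 and 652 in the first and 8901 and 550 in the third. A cause of these orders was not tested.

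Genes on the other strand were then examined, because the strand setting of the counting is not stated. *Y40B10A.10*, a non-coding RNA gene of 148 bases, lies on the plus strand from 2049985 to 2050132 and shares 90 exonic bases with the coding exons of *comt-4*. This is 11.04% of the exonic bases of *comt-4* and 60.8% of those of *Y40B10A.10*. *Y40B10A.10* had 1, 2 and 3 reads in the *vhl-1* libraries and 0 reads in each wild type library, which is at or under a floor of 3 reads, and it did not pass the filter. Counts per gene do not say where in *comt-4* its reads fall, so the share of them on these bases was not measured.

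The other overlaps were smaller. *comt-3* shares the last 31 bases of its 3' untranslated region, or 3.57% of its exonic bases, with *nhr-86*, a nuclear hormone receptor gene on the minus strand from 2061106 to 2066850. *nhr-86* had 36.0, 34.8 and 34.4 CPM in *vhl-1* mutants, against 35.7, 33.4 and 34.7 CPM in wild type animals. The genotypes overlapped, and its log2 fold change was 0.020 with a 95% interval from -0.17 to 0.21 (edgeR adjusted p = 1). *comt-1* shares 99 exonic bases with the non-coding RNA gene *F53B3.8*, which had 0 reads in every library. *comt-2* shares 6 bases with a pseudogene (WBGene00005466) that had at most 1 read in any library, and *comt-5* overlaps no other annotated exon.

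The genes on either side of the cluster showed no called difference. On the side of *comt-4*, the nearest protein-coding gene *Y40B10A.5* lies 3160 bases away and was barely expressed, with 0.0356 to 0.209 CPM in *vhl-1* mutants and 0.0480 to 0.191 CPM in wild type animals (log2 difference 0.22, edgeR adjusted p = 1). The pseudogene beyond it, WBGene00021489, differed by -0.087 on the log2 scale (edgeR adjusted p = 1). On the side of *comt-3*, the log2 fold changes were 0.020 for *nhr-86*, 0.056 for *lbp-9*, a lipid-binding protein gene, and 0.051 for *Y40B10A.9* (edgeR adjusted p = 1 for each). *Y40B10A.11*, a protein-coding gene of unstated function, lies between *comt-4* and *comt-5*, 729 bases from *comt-4* and on the same strand. It had 18, 22 and 8 reads in the *vhl-1* libraries, against 0, 1 and 0 reads in the wild type libraries. It fell below the filter and was not tested by edgeR. Against a floor of 3 reads per library it was at least 3.40-fold higher in *vhl-1* mutants, and DESeq2, which kept it, gave an adjusted p of 0.00905.

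**Figure D4:**
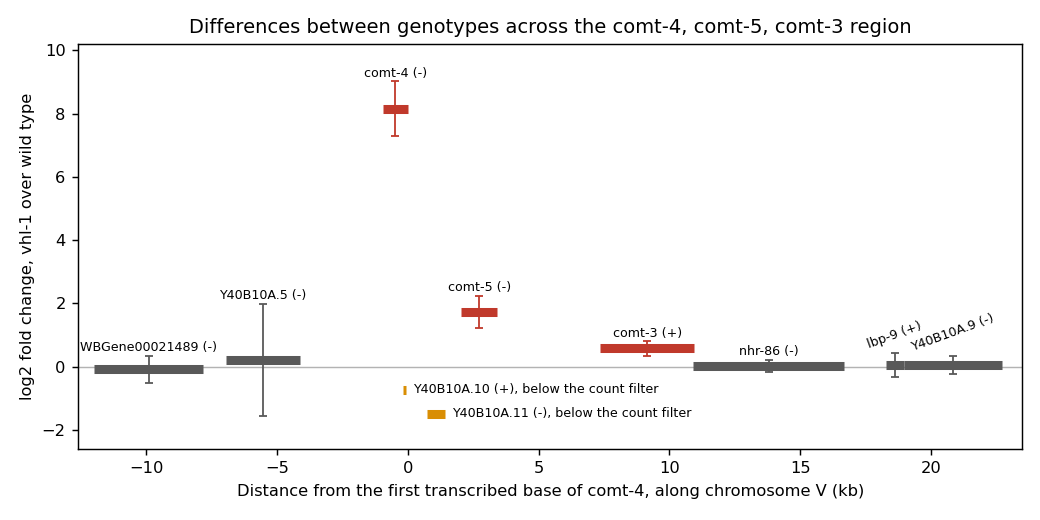
log2 fold change of each annotated gene around the cluster, *vhl-1* over wild type, against its distance in kilobases from the first transcribed base of *comt-4* along chromosome V. Bars span the genes (red for members, gray for others), with the strand in brackets, error bars are 95% intervals, and the 2 orange genes fell below the filter and are placed under the axis without a value. *comt-4* lies at 8.15, *comt-5* at 1.74 and *comt-3* at 0.57, and the intervals of the genes outside the cluster include 0. *comt-4* was chosen for its difference, so its interval is descriptive.

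Next, the genes that make, carry, sense and break down catecholamines and related amines were examined. With them were genes of phenylalanine and tyrosine breakdown, of the methyl donor cycle and of other small-molecule methyltransferases. These 6 lists held 42 genes, all of which passed the filter. None of the 42 passed the threshold in edgeR's quasi-likelihood test, where 1.25% of all genes did, and 1 passed it with DESeq2, where 3.45% of all genes did. At an unadjusted edgeR p under 0.05 there were 8 of the 42, a larger share than the 9.38% of all genes. The genotypes did not overlap in 8 of the 42, also a larger share than the 14.4% of all genes. Whether these shares differ was not tested. Their median log2 fold change was 0.071, and the values ran from -1.28 to 0.59.

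Of the genes of dopamine synthesis and uptake, *cat-2* and *dat-1* had low levels in whole animals. *cat-2*, which encodes the tyrosine hydroxylase of dopamine synthesis, had 1.87, 2.31 and 1.57 CPM in *vhl-1* mutants, against 1.46, 1.81 and 1.51 CPM in wild type animals. The log2 difference was 0.27 ± 0.22 (SE, edgeR adjusted p = 0.899). *dat-1*, the dopamine transporter gene, had 3.12, 5.03 and 3.56 CPM in *vhl-1* mutants, against 3.18, 2.63 and 3.25 CPM in wild type animals, a log2 difference of 0.37 ± 0.23 (SE, edgeR adjusted p = 0.797). The genotypes overlapped for each of these markers of dopaminergic neurons. Their sum was 4.99, 7.34 and 5.13 CPM in *vhl-1* mutants and 4.64, 4.43 and 4.76 CPM in wild type animals. For this sum the genotypes were apart by a narrow margin only. Of all single genes tested, 6.97% were likewise higher in *vhl-1* mutants without overlap. The sum itself was not tested, nor was any link between it and the levels of the *comt* genes. *bas-1*, the aromatic amino acid decarboxylase that completes dopamine and serotonin synthesis, differed by -0.30 ± 0.14 on the log2 scale (SE, edgeR adjusted p = 0.633). Its level was above those of *cat-2* and *dat-1*, with 45.1, 49.5 and 45.1 CPM in *vhl-1* mutants, against 46.7, 58.2 and 67.6 CPM in wild type animals. The 12 genes of amine synthesis and transport had a median of 0.24, and 9 of them were above 0. The 6 dopamine receptor genes had a median of 0.15 and the 3 amine oxidase genes one of -0.0069.

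The methyl donor cycle gave no call either. *ahcy-1* encodes the hydrolase that removes S-adenosylhomocysteine, the product that every such methyl transfer leaves behind. It averaged 3357 ± 556 CPM in *vhl-1* mutants and 3824 ± 141 CPM in wild type animals (SD, n = 3 each), a log2 difference of -0.19 (edgeR adjusted p = 0.846). The 8 genes of the cycle ran from -0.28 to 0.27 on the log2 scale, and the 7 other small-molecule methyltransferase genes from -0.34 to 0.12. In the breakdown of phenylalanine and tyrosine, 2 of the 6 genes were above 0 and 4 below. The widest differences, in opposite directions, were those of *gst-42* and of *hgo-1*, which encodes homogentisate 1,2-dioxygenase. *gst-42* was lower by a log2 difference of -0.59 (edgeR adjusted p = 0.357), without overlap of the genotypes. *hgo-1* had 152, 176 and 168 CPM in *vhl-1* mutants, against 92.9, 114 and 122 CPM in wild type animals. The genotypes did not overlap, and the call depended on the test, with a log2 fold change of 0.59 and an adjusted p of 0.103 from edgeR and of 0.0133 from DESeq2.

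**Figure D5:**
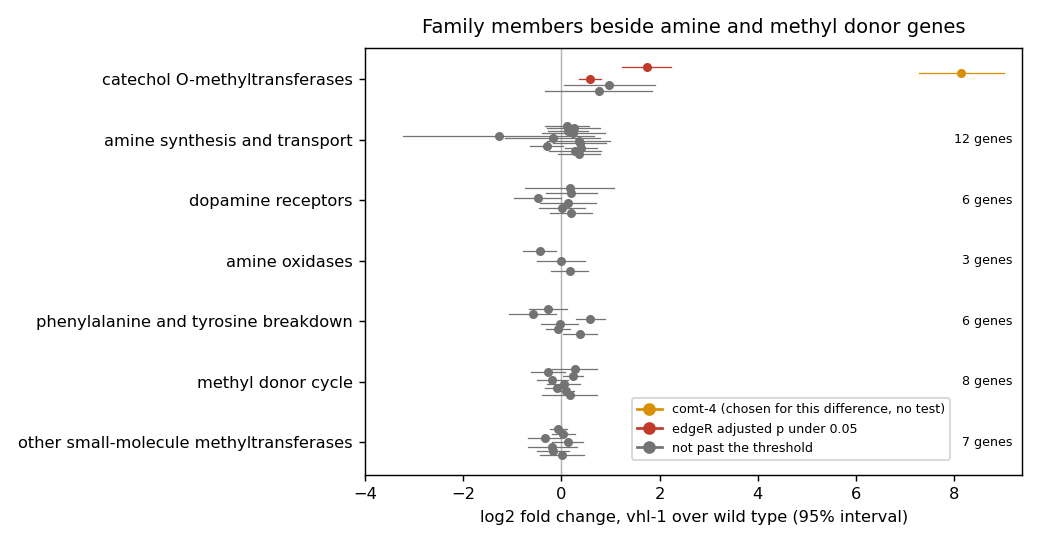
log2 fold change of the 5 members (top row) and of the 42 genes of the 6 lists, *vhl-1* over wild type, with 95% intervals. Red genes had an edgeR adjusted p under 0.05, gray genes did not, and *comt-4* is in orange because it was chosen for this difference. The interval of *comt-4* is descriptive for that reason. The listed genes lie between -1.28 and 0.59, and the members between 0.57 and 8.15.

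Finally, the genes with the pattern most like that of *comt-4* were sought among the 176 other genes with an absolute log2 fold change over 2, by Pearson's correlation of log2 CPM over the 6 libraries. All of these points fall into the 2 genotypes, so the correlation is a description and largely restates the difference between them. The 5 most alike were *21ur-1334*, *nhr-57*, *gst-19*, *rips-1* and *mpst-3*, with correlations from 0.9977 to 0.9991. *nhr-57*, a nuclear hormone receptor gene long used as a reporter of HIF-1 activity, had 56.7, 50.1 and 56.2 CPM in *vhl-1* mutants, against 4.49, 4.43 and 5.44 CPM in wild type animals. *gst-19*, a glutathione S-transferase gene, had 142, 94.4 and 118 CPM in *vhl-1* mutants, against 0.229, 0.304 and 0.281 CPM in wild type animals. In CPM, the second *vhl-1* library was the lowest of the mutant libraries for all 5 genes, as it was for *comt-4*. The choice by correlation over these same libraries favors such a shared order, so it is no separate result. *21ur-1334*, annotated as a piRNA gene, had 47, 31 and 29 reads in *vhl-1* mutants and 0 in wild type animals. Its count was at least 7.80-fold higher against a floor of 3 reads per library. It passed the filter through the mutant libraries alone. The study sequenced mRNA, so these are reads counted at the locus and no measure of a piRNA, and the transcript they came from was not tested.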

How the data were processed

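RNA from 3 *vhl-1* and 3 wild type samples of whole young adults was sequenced as single-end reads of short length. Per the labels and the study's methods, the authors trimmed reads with Trim Galore 0.4.3.1, aligned them with STAR 2.6.0b, counted them with featureCounts 1.6.3 and deposited raw counts per gene, without normalization. Genome build, annotation release and strand setting are not given in the sources used here. Each deposited set of counts ends in 1 blank row that holds 0 reads.

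Symbols and positions came from the Ensembl annotation of WBcel235, in which 46603 of 46778 identifiers were found. edgeR 4.0.16, run in R 4.3.3, tested the counts, with its default expression filter, TMM, quasi-likelihood test on genotype, Benjamini-Hochberg adjustment over 16596 genes, threshold 0.05. Standard errors were the absolute log2 fold change over the root of the F statistic. log2 CPM used a prior count of 2. P-values measure the spread between the libraries. No pair of replicates was as alike as sampling noise allows (chi-square per gene of at least 43.3, where noise gives about 1). The alternatives were DESeq2 1.42.0, other scalings, other filters, each library left out, the replicate number as a block and a germ line marker covariate, chosen after the data were seen. Both tools were checked on simulated counts made from the mean levels and depths of these libraries. The spread between replicates was set to a single dispersion of 0.06 for every gene. A log2 change of 2 was given to 200 genes above a minimum mean count. All of these were found (100%), by edgeR with 6.98% false calls over 16582 genes and by DESeq2 with 11.1% false calls over 16513 genes. Smaller changes, such as those of *comt-1*, *comt-2* and *comt-3*, were not simulated.

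Members and lists were chosen with earlier results of these data known. The lists were written from general knowledge. The text names the members, *vhl-1*, genes overlapping a member's exons, the neighbors of *comt-4*, listed genes past the threshold, *cat-2*, *dat-1*, *bas-1*, *ahcy-1*, and the 5 genes most correlated with *comt-4*. *hgo-1*, *gst-42*, *pmt-2*, *col-19*, *dpy-7*, *lbp-9*, *Y40B10A.9* and WBGene00021489 were named after their values were seen. No sequence was used, so the part of the rule on similar proteins was not run.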

Additional observations from a re-analysis of the deposited data

How the results depend on the processing

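Every member kept its direction in each alternative that was run. *vhl-1* kept its call in those that tested it, but dropped out under the stricter count filter. The log2 fold change of *comt-4* lay between 7.95 and 8.40. *comt-3* (0.57) lost its call without a filter on low counts (0.58, edgeR adjusted p = 0.0817), with at least 10 counts in every library (0.58, 0.0531) and with a library left out (0.55 to 0.60), and *comt-5* (1.74) in 3 of the 6 fits with a library left out (1.56 to 1.86). *comt-1* and *comt-2* passed in none, at 0.39 to 1.03 and 0.64 to 1.26 with a library left out. *nhr-86*, close to 0, ran from -0.014 to 0.043 in those fits. The 207 genes past the threshold, 70.0% of them higher, became 653 with DESeq2 (51.6% higher), 483 with the germ line marker score (53.2%), 49 to 161 in the fits that drop a library and 65 at a threshold of 0.01. Of the 42 listed genes, 0 passed with edgeR, 1 with DESeq2 (*hgo-1*) and 2 with the marker score (*hgo-1* and *pmt-2*). Dividing all reads of *comt-3* by the exonic length that no other gene shares gave 30.7 CPM per kilobase in *vhl-1* mutants and 20.6 in wild type animals. For *comt-4*, the member with the largest overlapped share, this gave 179 CPM per kilobase in *vhl-1* mutants and 0.635 in wild type animals. It is a change of scale that leaves the ratio of the genotypes as it was. Causes were not tested. A fit that leaves a library out changes the number of samples and the set of libraries together. Counts of *comt-4* in wild type animals, 25 to 33 reads, limit the precision of its fold.

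Whether the replicate numbers mark pairs was not settled. The correlations of deviations within the 3 numbers were 0.55, 0.44 and -0.016, and none are given between unlike numbers. The main fit used genotype only. With the replicate block, 354 genes passed the threshold, *comt-3* missed it (0.57, edgeR adjusted p = 0.0765), *comt-5* kept it and 1 listed gene (*hgo-1*) passed.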
